A study of Mus musculus with 1 sample.

Results

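Cholesterol and fatty acid synthesis genes were examined in 1 sample, labelled KR Primary, of a lung cancer cell line that came from a KR tumor of a B6/J mouse. The labels do not spell out KR, and they do not say how many clones or passages the line went through. The cells grew in RPMI1640 medium with fetal bovine serum and were collected near confluence, and their total RNA was hybridized to 1 Affymetrix expression array. No other group was analysed here, and there was no replicate. The values below therefore carry neither an error between replicates nor a test.

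The gene set was a list of 54 genes of sterol synthesis, fatty acid synthesis and the use of fatty acids, chosen by name. The choice was made with earlier results of these data known, so comparisons of the list with all genes are descriptions only. A gene was included when the platform annotation named it alone on at least 1 probe set, a group of short probes that reports the hybridization of a transcript in arbitrary fluorescence units. This held for 50 of the 54 genes, with 116 probe sets, out of 18193 genes measured by 34945 probe sets of this kind. The remaining members, Acat2, Soat1, Acsl1 and Cpt1b, were not analysed here as genes. Equal amounts of RNA can give unequal signals on different probe sets, so signals do not rank genes by RNA amount, and each was read against background. Background was a set of 126 probe sets on the same array, for receptors of smell and taste (olfactory, vomeronasal and bitter taste) and for keratin-associated proteins of hair. The background line was set at 16.8, the 95th percentile of this set, and the upper background limit at 60.6, its highest signal. A gene counted as above either threshold when at least 1 of its probe sets was.

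Cells make cholesterol from acetyl-CoA through mevalonate, farnesyl diphosphate and squalene, and they make palmitate from the same precursor with acetyl-CoA carboxylase and fatty acid synthase. Both branches are controlled by the sterol regulatory element-binding proteins (SREBPs), membrane-bound transcription factors that the escort protein SCAP carries from the endoplasmic reticulum to the Golgi for cleavage when sterols are low, while INSIG proteins hold them back when sterols are plentiful. SREBPs act at promoters together with the factors NF-Y, which binds CCAAT boxes, and Sp1, which binds GC boxes. In the lung, alveolar type 2 cells use fatty acid synthesis for surfactant lipids.

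Of the 50 measured members, 47 gave signal above the background line and 46 above the upper limit. Over all 18193 genes, 63.3% passed the line and 47.5% the limit. The members' highest probe sets had a median signal of 380.3, with the middle of the distribution between 204 and 1018 (quartiles), against 48.3 over all genes, with quartiles of 9.73 and 289. These medians describe probe set signals and not RNA amounts. The members not above the line were Acacb, Elovl2 and Elovl4, and Elovl3 lay between the thresholds. Genes with more probe sets pass such thresholds more often, so counts and medians were also taken by probe set number. With 1 probe set, 13 of 14 members were above the line, against 48.4% of all genes with 1, and the median signals were 509 in these members and 15.6 in all such genes. With 2 probe sets, 16 of 18 members were above it, against 72.4% of all genes with 2, with median highest signals of 199 in these members and 86.8 in all such genes. All 11 members with 3 probe sets and all 7 with 4 or more were above the line, against 82.3% and 89.0% of all such genes. The median highest signals were 472 for members with 3 probe sets, against 175 for all such genes, and 846 for members with 4 or more, against 288 for all such genes. The counts describe transcripts present in these cells and do not measure enzyme activity or lipid synthesis. In RNA from a whole culture, a low signal cannot be told apart between fewer expressing cells and less RNA per cell.

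The promoters of the sterol genes often held a CCAAT box, a feature that the choice of genes did not use. RefSeq promoter windows (GRCm38.p6, 250 bases before to 50 after each start, 300 bases in all) were at hand for 41 of the 50 measured members, with 54 windows. Fdps, Fdft1, Sqle, Scd1, Scd2, Fads1, Elovl3, Dgat1 and Dgat2 had no window here and were not searched. The windows were searched on both strands for CCAAT, for GGGCGG, for CACGTG, and for the sterol element form TCACNCCAC. Matches to different motifs were counted separately, also where they overlapped. CCAAT occurred in 19 of 27 windows of the sterol members (70.4%), in 14 of 27 windows of the other members (51.9%) and in 37.4% of all 32851 windows in the table. By gene, 18 of the 19 sterol members with a window had a CCAAT box in at least 1 of them, all but Scap. This held for 14 of the 22 other members (63.6%), 42.8% of genes above the line and 41.1% of all genes in the table. A gene with several windows has more chances of a match in this count, which was not adjusted for window number. Member windows held from 0 to 5 boxes. The windows of 4 genes are shown as picked examples, 3 with many boxes and 1 of a gene not above background. Other members above the limit had fewer boxes, such as 1 in Cyp51 and Lss and 0 in Elovl6. Hmgcs1 had 4 CCAAT boxes and the only TCACNCCAC match among the members with a window. Mvk had 5 boxes, Nsdhl 4 and Acacb 1. Capitals mark CCAAT or its reverse complement ATTGG and, in Hmgcs1, the TCACNCCAC match.
Hmgcs1, chr13:119690101-119690400, plus strand: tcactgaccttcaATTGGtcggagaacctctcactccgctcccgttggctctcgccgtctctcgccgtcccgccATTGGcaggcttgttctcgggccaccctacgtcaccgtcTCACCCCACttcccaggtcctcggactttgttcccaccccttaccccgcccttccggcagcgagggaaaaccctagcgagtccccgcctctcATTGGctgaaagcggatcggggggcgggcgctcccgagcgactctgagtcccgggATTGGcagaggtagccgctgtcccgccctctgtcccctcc
Mvk, chr5:114444019-114444318, plus strand: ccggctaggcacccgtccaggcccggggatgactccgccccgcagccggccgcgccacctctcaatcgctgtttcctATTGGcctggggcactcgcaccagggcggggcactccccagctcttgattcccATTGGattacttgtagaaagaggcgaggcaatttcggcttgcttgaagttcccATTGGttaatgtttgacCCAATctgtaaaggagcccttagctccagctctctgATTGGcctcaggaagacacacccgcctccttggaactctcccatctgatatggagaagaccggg
Nsdhl, chrX:72918271-72918570, plus strand: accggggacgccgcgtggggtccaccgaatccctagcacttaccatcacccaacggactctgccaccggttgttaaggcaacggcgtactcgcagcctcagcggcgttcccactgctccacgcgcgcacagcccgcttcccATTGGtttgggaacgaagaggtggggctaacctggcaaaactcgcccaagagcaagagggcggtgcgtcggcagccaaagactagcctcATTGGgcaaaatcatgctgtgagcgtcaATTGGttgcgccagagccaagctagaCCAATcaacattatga
Acacb, chr5:114165268-114165567, plus strand: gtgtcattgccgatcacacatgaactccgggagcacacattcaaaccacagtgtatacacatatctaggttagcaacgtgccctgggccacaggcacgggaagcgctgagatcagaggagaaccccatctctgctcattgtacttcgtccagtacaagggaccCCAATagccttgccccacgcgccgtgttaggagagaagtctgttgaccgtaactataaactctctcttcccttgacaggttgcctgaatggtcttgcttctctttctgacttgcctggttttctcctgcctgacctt
The Hmgcs1 window also held 3 GGGCGG matches, the Mvk window 2, the Nsdhl window 1 and the Acacb window 0. GGGCGG occurred in 22 of the 27 sterol windows (81.5%) and 17 of the 27 other member windows (63.0%). On the array as a whole, 62.1% of the windows of genes above the line held GGGCGG, against 32.9% of the windows of genes not above it. CCAAT occurred in 37.5% of the windows of genes above the line and 37.2% of the windows of genes not above it. CACGTG was found in 6 of 27 sterol windows and 4 of 27 other member windows, against 9.92% of the windows of genes above the line, 6.38% of those of genes not above it and 7.15% of all windows. TCACNCCAC was rare, with 1 of 54 member windows and 1.24% of all windows. A match is a string of letters and not a measured binding site.

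**Figure D1:**
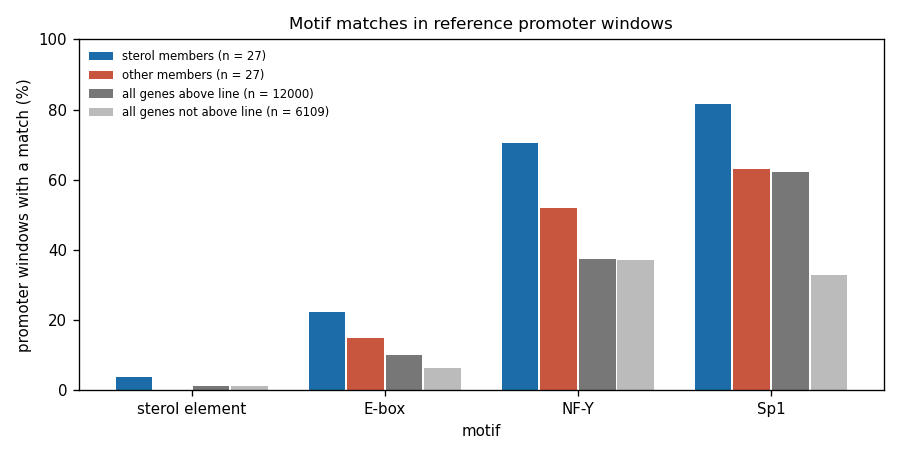
Percent of promoter windows (y axis) with at least 1 match to each motif (x axis), for sterol members, other members, all genes above the background line and all genes not above it, where n is the number of windows. The NF-Y motif CCAAT was in 70.4% of the sterol windows against 37.5% of windows of genes above the line and 37.2% of genes not above it.

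The SREBP control genes were all above the upper limit on at least 1 probe set. Srebf1, which encodes SREBP forms that drive fatty acid genes, gave 669 on its only probe set. Srebf2, whose product mainly drives cholesterol genes, had signals of 469 and 195. Both genes stood above the upper limit on every probe set. Insig1, itself a target of SREBPs, gave 350.0 on 1 probe set, and Insig2, a second retention protein, gave 411, 357 and 235. Scap, the escort protein gene, was split, with 249 on one probe set and 10.5 on the other, so that its presence rests on 1 of 2 probe sets. In this group 8 of 9 probe sets were above the line and above the limit.

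The 6 measured genes between acetoacetyl-CoA and farnesyl diphosphate were all above the upper limit. Hmgcs1, the cytosolic HMG-CoA synthase that opens the mevalonate branch, gave 3159, 2893, 2402, 1104 and 75.3, all 5 above the limit. Its promoter window, printed above, held both a TCACNCCAC match and CCAAT boxes. Mvk, the mevalonate kinase gene, gave 103 and 89.3, and these probe sets differed less than those of any other member with several (SD 0.14 on the log2 scale). Pmvk, the following kinase, gave 212, and Mvd, the decarboxylase that makes isopentenyl diphosphate, gave 198 and 163. Idi1, which isomerizes that product, gave 1915 and 1169.9. Fdps, the farnesyl diphosphate synthase gene, gave 2081 on one probe set and 0.692 on the other. The Fdps pair had the widest spread of all members (SD 8.17 on the log2 scale), and only 1 of the 2 was above the line.

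All 11 genes from squalene to cholesterol were above the upper limit as well, with 20 of their 24 probe sets above the line. Fdft1, squalene synthase, gave 2192 and 1293 on 2 probe sets and 16.5 and 11.0 on the other 2, which were below the line. Sqle, the squalene epoxidase that is a control point of the branch, gave 1158. Lss, which closes the sterol ring to lanosterol, gave 301, 93.1 and 45.6, of which the last lay between the thresholds. Thus the genes of the 3 steps that turn farnesyl diphosphate into the first sterol each had at least 1 probe set above the limit.

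The demethylation enzymes followed. Cyp51, the lanosterol demethylase, gave 1002, 295 and 37.1. Msmo1, the sterol methyl oxidase, gave 2058 and 37.2, with 1 probe set above the limit and 1 between the thresholds. Nsdhl and Hsd17b7 act after it in removing the methyl groups. Nsdhl gave 711 on its only probe set, and Hsd17b7 gave 223, 169, 122 and 9.95, with 3 of 4 above the limit. Tm7sf2, a sterol reductase of the ring, gave 270.1. For the last steps, Ebp, the sterol isomerase, gave 1021, Sc5d, the sterol desaturase, gave 1007, 102 and 16.2, and Dhcr7, the reductase that finishes cholesterol in one of its routes, gave 103. Of the Sc5d probe sets, 2 of 3 were above the line.

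**Figure D2:**
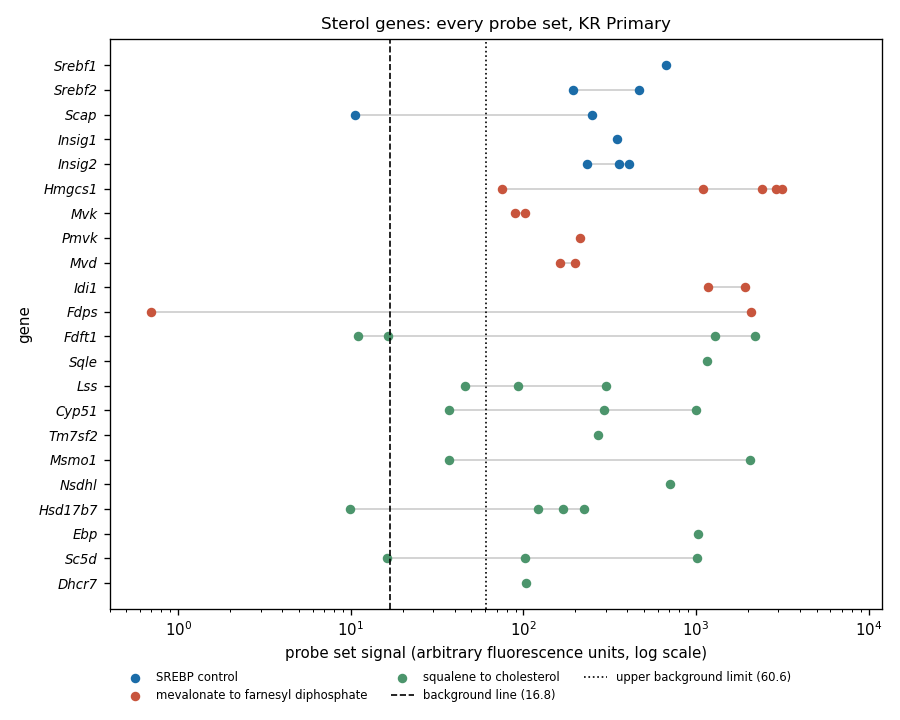
Signal of every probe set (x axis, arbitrary fluorescence units, log scale) for the 22 measured sterol genes (y axis), where points are probe sets, grey bars join the probe sets of a gene, and colours give the role. Each of the 22 genes has at least 1 point right of the upper limit of 60.6, while Scap, Fdps, Fdft1, Hsd17b7 and Sc5d also have points left of the line at 16.8.

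Of the 4 genes that turn citrate into palmitate, 3 were above the upper limit and 1 was not above background. Acly, which frees acetyl-CoA from citrate, gave 2000.5, 1608 and 434 on 3 of its 6 probe sets and 21.0, 14.7 and 3.88 on the others. Fasn, the fatty acid synthase gene, gave 1110.3 on its only probe set. The carboxylases that make malonyl-CoA differed in their calls. Acaca, the cytosolic carboxylase of lipid synthesis, gave 133 and 12.9, so that 1 of 2 probe sets was above the limit. Acacb, the mitochondrial-surface carboxylase known from muscle, heart and liver, whose malonyl-CoA restrains fatty acid oxidation, gave 11.2 and 4.06, both below the line.

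All 5 desaturase genes were above the upper limit, and all 13 of their probe sets were above the line. Stearoyl-CoA desaturases make monounsaturated fatty acids. Scd2, the form known from brain and many dividing tissues, gave 5373, 1487 and 293, all above the limit. Scd1, the main form of liver and fat, gave 121 and 52.5, with 1 probe set above the limit and 1 between the thresholds. Scd3, a gene of skin glands that lies beside Scd2 on chromosome 19 and was not on the member list, gave 17.9 and 14.7, of which only the higher passed the line. Scd3, Scd2, Scd4 and Scd1 follow each other on that chromosome with 0 other protein-coding genes between them in RefSeq. Scd4 was not analysed here. Scd1, Scd2 and Scd3 each passed the line on at least 1 probe set, and Scd1 and Scd2 also passed the limit, which Scd3 did not. The polyunsaturated desaturase genes form another cluster on chromosome 19, again with 0 protein-coding genes between them. Fads1 gave 157 and 25.8, Fads2 gave 446, 364 and 58.9, and Fads3, a less studied relative, gave 662, 307 and 90.2. All members of this cluster were above the limit on at least 1 probe set, and Fads3 on all 3.

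The elongases, which lengthen fatty acids in the endoplasmic reticulum, were divided, with 5 of 7 above the line and 4 above the limit. Elovl1, which elongates saturated very long chains, gave 846, 790.1, 471 and 30.9. Elovl5, an elongase of polyunsaturated chains, gave 1108 and 946. Elovl6, which turns palmitate into stearate, gave 472, 236 and 17.8. Elovl7 gave 543, 325, 74.2, 70.8, 65.2 and 27.5, so that all 6 of its probe sets were above the line and 5 above the limit. The other 3 elongases are known from particular tissues. Elovl3, known from brown fat, liver and skin, gave 21.4 on its only probe set, above the line and below the limit. Elovl4, which makes very long chains in retina, brain and skin, gave 7.68 and 4.15, both below the line. Elovl2, an elongase of long polyunsaturated chains in liver, testis and retina, gave 1.26 on its only probe set. The calls of these 3 genes rest on 1 or 2 probe sets each.

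Acyl-CoA synthetases activate free fatty acids for every later use. Acsl5, a form known from intestine and liver, gave 3083 on its only probe set. Acsl4, which prefers arachidonate, gave 764, 239 and 163, all above the limit. Acsl3, a form of endoplasmic reticulum and lipid droplets, gave 346, 153 and 18.9, with 2 of 3 above the limit. All 7 probe sets of the 3 measured genes were above the line.

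The 7 measured genes of esterification and lipid droplets were all above the upper limit. Gpam, the mitochondrial acyltransferase that starts glycerolipid synthesis, gave 287 and 31.6. Lpin1 and Lpin2 encode phosphatidate phosphatases. Lpin1 gave 201 and 123, and Lpin2 gave 234, 79.1, 71.5 and 17.5. Dgat1 and Dgat2 encode the enzymes that complete triglyceride. Dgat2 gave 288 and 158, whereas Dgat1 gave 182 and 14.7. The Dgat1 probe set with signal has a name ending in _s_at, which marks probes shared by several transcripts, and the one below the line does not, so without such probe sets Dgat1 was not above background. Plin2, the coat protein that follows the amount of stored lipid in many cells, gave 2046, and Plin3, another droplet coat protein, gave 310.3.

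Carnitine palmitoyltransferases bring fatty acids into mitochondria for oxidation. Cpt1a, the liver-type outer membrane enzyme, gave 227, 105 and 46.8, all above the line. Cpt2, the inner membrane enzyme, gave 159 and 12.9, with 1 of 2 above the line.

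**Figure D3:**
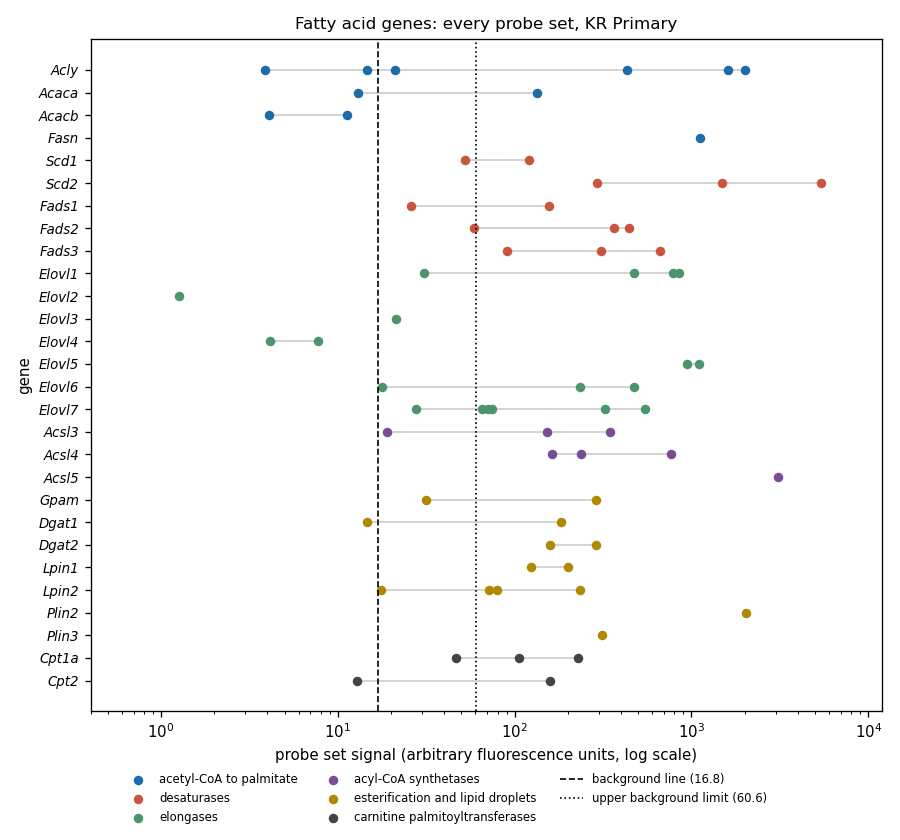
Signal of every probe set (x axis, arbitrary fluorescence units, log scale) for the 28 measured genes of fatty acid synthesis and use (y axis), where points are probe sets, grey bars join the probe sets of a gene, and colours give the role. All points of Acacb, Elovl2 and Elovl4 lie left of the background line at 16.8, Elovl3 at 21.4 lies between the thresholds, and the other 24 genes have at least 1 point right of the upper limit of 60.6.

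Probe sets of the same gene did not always give the same call. Among the 36 members with 2 or more probe sets, 25 had all of them above the line, 2 had none and 9 were split (25%), against 32.9% split among 9010 such genes on the array. The 9 split members were Scap, Fdps, Fdft1, Hsd17b7, Sc5d, Acly, Acaca, Dgat1 and Cpt2. On the log2 scale, the SD among a gene's probe sets had a median of 1.73 in members, against 1.45 over all genes. In all, 100 of the 116 member probe sets (86.2%) were above the line, against 60.9% of all 34945. When every probe set of a gene had to pass, 38 members remained above the line and 24 above the limit, against 47.0% and 27.3% of all genes. How far probe brightness, transcript variants or noise made up this spread was not tested.

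The genes around the member list were described from 5 related lists with 76 measured genes of 88 listed. In the list of further sterol and isoprenoid synthesis, all 9 measured genes passed the limit. They included Nus1, a subunit of the enzyme that makes dolichol precursors, at 947 on the highest of 6 probe sets, and Mbtps2 at 653 and Mbtps1 at 620.4, the proteases that cleave SREBPs in the Golgi. The lowest were Dhdds, the partner of Nus1, at 194, and Pdss2, a subunit of the enzyme for the ubiquinone tail, at 157, where 1 of 3 probe sets passed.

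Of 13 measured genes of cholesterol uptake, transport and efflux, 9 were above the line and 7 over the limit. Npc2, which hands over lysosomal cholesterol, gave 4014 on the highest of 4 probe sets, and Osbp, a sterol carrier, gave 386. Vldlr, a lipoprotein receptor, gave 219 on the highest of 6 probe sets, of which 4 were above the line. The lowest were Nr1h3, the sterol-sensing nuclear receptor LXR-alpha, at 10.2, and the apolipoprotein gene Apoe at 8.85, both below the line on their only probe set. The other 2 below the line, named after their values were seen, were Lrp1, a lipoprotein receptor, at 14.3 and 5.47, and Abca1, the LXR target that exports cholesterol, at 11.8, 8.62 and 2.94.

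Of 16 other genes of fatty acid synthesis and elongation, 13 passed the line and 10 the limit. Hsd17b12, the ketoacyl-CoA reductase that works with the elongases, gave 2212 and 1483, Me1, a source of NADPH, gave 1598 and 869, and Slc25a1, the mitochondrial citrate carrier, gave 1089. Mlxipl, which encodes the carbohydrate-sensing factor ChREBP, gave 2.85, and Acsl6, a brain synthetase, gave 3.75 and 1.19, all below the line. Of 20 other glycerolipid and droplet genes, 16 passed the line and 11 the limit. The acyltransferase genes Agpat5, Agpat2 and Agpat4 gave 1427, 1023 and 590.0 on their highest probe sets. The lowest Agpat5 probe set, at 15.1, was below the line. Plin4, a droplet coat protein of fat cells, at 8.29 and Mogat1, an acyltransferase, at 6.29 were below the line.

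In the list of fatty acid oxidation, 17 of 18 measured genes passed the line and 15 the limit. The dehydrogenase genes Acadl and Hadh gave 1563 and 933 on their highest probe sets. Hadhb, a subunit of the trifunctional protein, gave 831 on the highest of 3. The other Acadl probe set gave 9.12, below the line, while the lowest of Hadh and Hadhb, at 42.1 and 17.6, passed it. The lowest were Ppara, the nuclear receptor that drives oxidation genes in liver, at 17.4, the only one of its 3 probe sets to pass, and Cpt1c, the neuronal carnitine palmitoyltransferase, at 10.4. These lists, like the members, are to be read against the 63.3% and 47.5% of all genes above the line and the limit, and no difference between lists was tested.

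**Figure D4:**
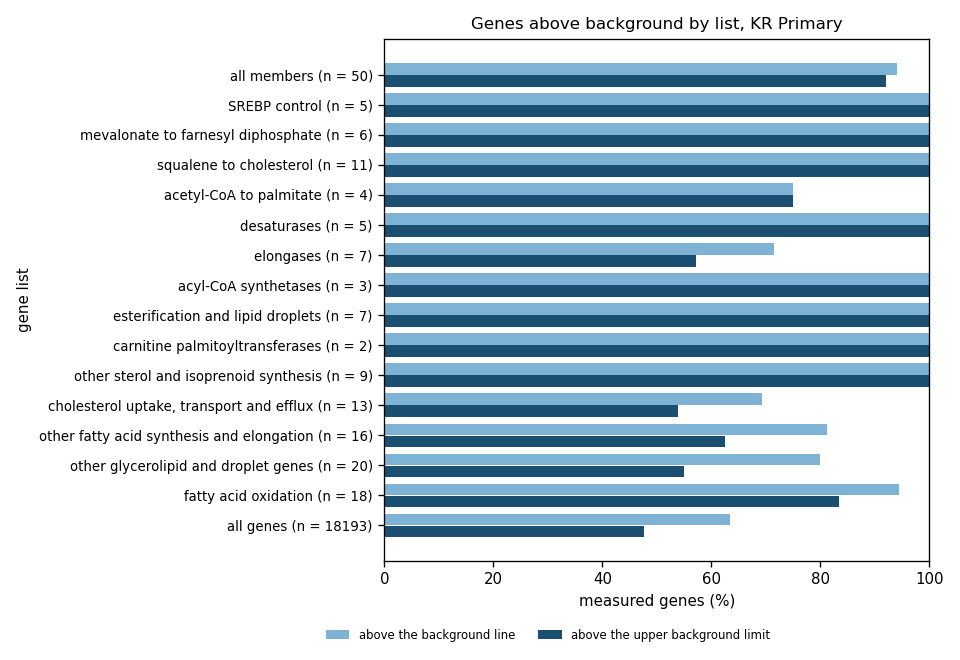
Percent of measured genes (x axis) above the background line and above the upper background limit for all members, the 9 role groups, the 5 related lists and all genes of the array (y axis), where n is the number of measured genes. The 3 sterol groups reach 100% at both thresholds. So do the desaturases, acyl-CoA synthetases, esterification and lipid droplet genes, carnitine palmitoyltransferases and the related list of other sterol and isoprenoid synthesis. The genes from acetyl-CoA to palmitate reach 75% at both, the elongases 71.4% and 57.1%, and all genes 63.3% and 47.5%.

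The labelled cell type was checked against markers. All 6 simple-epithelium genes (Epcam, Cdh1, Krt8, Krt18, Krt7 and Krt19) were above the limit, with highest signals from 3219 to 7600.2. Of 5 measured alveolar type 2 genes, 3 were above the line and only the surfactant lipid transporter Abca3, at 370.4, was above the limit, while Nkx2-1, the lung lineage factor, gave 7.66. Marker lists of lipid-handling cells were read in the same way, and their part in the members' signals was not tested. Above the limit were 0 of 5 measured adipocyte genes, 0 of 6 hepatocyte genes, 0 of 5 genes of steroid-producing cells and 0 of 4 sebaceous genes. Adipoq and Lep gave 8.54 and 1.49, Alb gave 9.17 and Cyp17a1 gave 0.771. In the adipocyte, steroid and sebaceous lists 2 genes each lay between the thresholds. By highest signal these were the adipocyte genes Retn at 46.4 and Fabp4 at 17.2 and the steroid genes Cyp11a1 at 29.0 and Star at 20.9. The sebaceous genes were Elovl3, which is also a member, and Scd3. No hepatocyte gene passed the line. Fibroblast, leukocyte and endothelial lists had 0 of 6, 1 of 6 and 0 of 5 genes above the limit, the exception being Cd68 at 69.8. Above the line were 1, 2 and 2 genes of these lists. Besides Cd68 these were the leukocyte gene Csf1r, at 47.1, 44.3 and 29.4, and, by highest signal, Kdr at 30.3, Cdh5 at 17.4 and Col1a2 at 19.3. The counts above the limit depend on the keratin-associated probe sets, without which the limit was 19.2. Above that value were also Sftpb, Sftpc, Retn, Star, Cyp11a1, Elovl3, Csf1r, Kdr and Col1a2, but no hepatocyte gene.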

How the data were processed

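Total RNA was extracted with Trizol and labelled as biotinylated cRNA, per the labels' protocols. Each probe set has 1 deposited intensity, linear and not log-transformed. The submitters' processing notes name Affymetrix Expression Console as the authors' tool, and its version, summary method, background correction and scaling are not given in the sources used. The intensities ran from 0.0591 to 8928, and precision is limited by the single array. Of 45101 probe sets, 64 were controls, 34945 named 1 gene in the platform annotation, 932 named several and 9160 had no name here. Only those naming 1 gene were used. Gene IDs matched a RefSeq table (GRCm38.p6) for 34741 of them, which changed 0 symbols.

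The background set covered 112 genes, had a median of 6.41 and defined the line and limit given above. With 1 sample no test was possible. Protein sequences were not used here, so identities between family members were not computed. Named genes were all measured members, the 3 highest and 2 lowest measured genes of each related list, and marker genes. Scd3 and the genes so marked in the text were named outside this rule. Members and lists were chosen with earlier results of these data known. Calling and motif functions were tested on simulated data. The software was matplotlib 3.10.9, numpy 2.4.6, pandas 2.3.3 and Python 3.11.15.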

Additional observations from a re-analysis of the deposited data

Results flagged for a closer look

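A probe set that names 3 genes together, Gm44502, Cpt1b and Chkb, gave a signal of 29.7, above the background line of 16.8 and below the upper limit of 60.6. It is listed because it carries the only value for Cpt1b, the muscle-type carnitine palmitoyltransferase, and was left out of the gene counts. Its signal cannot be assigned to any of the 3 genes.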

How the results depend on the processing

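The 17 counts were recomputed under 7 alternatives that could change them, and of 116 recomputed counts 112 stayed within 1.5 times the reported value. Using the annotation's own symbols changed nothing, since the update altered 0 symbols. The number of members above the line was 47 with a 90th percentile line, without keratin-associated genes in the background and with the median probe set of a gene. It was 46 with a 99th percentile line, with a line at the background median plus 3 scaled median absolute deviations (94.6), and without probe sets ending in _x_at or _s_at, and 38 when every probe set had to pass. The same 3 members, Acacb, Elovl2 and Elovl4, were below the line in all of these. Requiring every probe set to pass moved the members above the upper limit to 24, the genes from acetyl-CoA to palmitate above the line to 1 and the carnitine palmitoyltransferases to 1. The median-based line moved the other glycerolipid and droplet genes to 10. Under the last-named line 42.4% of all genes passed. Leaving out shared-probe names could move the highest signal of 9 members, and moved 2 by more than 1 SD of their probe sets, Lss to 93.1 and Dgat1 to 14.7. The median probe set moved 5 of 36 by that much, Lss to 93.1, Sc5d to 102, Elovl7 to 72.5, Acsl4 to 239 and Lpin2 to 75.3. The causes were not tested. No paired analysis was possible because there was 1 sample. Weak signals limit the account: no detection calls were used here, and values near the line carry little information on amount.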

Other observations

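Nuclear receptors and partners of lipid metabolism in the related lists gave mixed signals. Pparg, the receptor that drives fat storage genes, gave 94.4 on its only probe set, above the upper limit. Ppard, a more widely expressed relative, gave 236 and 1.26, on either side of both thresholds. Ppargc1a, a coactivator of mitochondrial genes, passed the line on 1 of 5 probe sets, at 21.1. Stard4, a cytosolic sterol carrier that SREBPs induce, gave 405, 399 and 364, and Hilpda, a droplet protein induced by low oxygen, gave 544 on its only probe set. These genes were named after their values were seen.

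The kind of sequence a probe set was built on differed among members. Where the annotation gives a RefSeq mRNA, 24 of 25 member probe sets were above the line, against 60.3% of all such probe sets. With another accession 65 of 76 were, against 60.6%, and with none 11 of 15, against 65.1%.

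The median CpG content of the promoter windows was 21 CpG per 300 bases over 54 member windows, against 20 in genes above the line and 6 in genes not above it. Of the members not above the line, Elovl2 had windows with 56 and 45 CpG and Elovl4 a window with 35, while Acacb had 10. Acaca, above the limit on 1 of 2 probe sets, had 1 CpG in its only window.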
